A study of Homo sapiens with 11 samples.

Results

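Chromatin domains of 100 kb or less, called small domains here, were taken from the deposited Hi-C domain lists of 3 human lung cell lines. The rule took every domain whose end minus its start came to at most 100 kb, outside chromosome Y. Members were thus chosen by the deposited domain ends, so their lengths and scores are given as a description only, and the rule found 1342 small domains among 12696 domains in all. They were 665 of the 5023 domains in DMS153, 383 of 3975 in H209 and 294 of 3698 in MRC5. Both DMS153 and H209 derive from small cell lung carcinoma, an aggressive neuroendocrine tumour, whereas MRC5 consists of noncancerous lung fibroblasts; all are established lines. All 3 lines grew untreated in RPMI 1640 medium with fetal bovine serum. Each line has 1 library of Hi-C, a method that ligates crosslinked chromatin to count which parts of the genome touch. RNA-seq had 3 libraries for DMS153, 2 for H209 and 3 for MRC5 and gave each listed gene an FPKM value, a fragment count corrected for transcript length and for library size. RNA libraries titled DM153 carry DMS153 in their cell line field and were taken as DMS153. Separate cultures are not stated for the RNA replicates, and the p-values therefore reflect only how far these libraries spread, which may be technical. In such bulk samples fewer cells of a type and less RNA per cell cannot be told apart.

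In mammalian nuclei the chromatin fibre folds into domains, stretches in which sequences meet one another more often than they meet sequences outside. Many domain ends are bound by the insulator protein CTCF, at which loops extruded by the cohesin ring come to rest, and active promoters are frequent near them. Gene-rich chromosomes carry many broadly expressed genes close together.

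The labelled cell types were checked against marker genes. The 5 neuroendocrine markers NEUROD1, INSM1, CHGA, SYP and DLL3 each reached 1 FPKM in each of the 5 carcinoma libraries, with summed levels of 564 to 813 FPKM. None of them did so in MRC5, where their sum was at most 0.363 FPKM. All 6 fibroblast markers (VIM, COL1A1, COL1A2, DCN, LUM and FN1) reached 1 FPKM in MRC5, with sums of 8943 to 9848 FPKM against 9.36 to 11.01 FPKM in the carcinoma libraries. Blood markers summed to at most 1.61 FPKM and endothelial markers to at most 0.637 FPKM. Several microRNA loci are listed with high FPKM in DMS153 alone, and other scalings of the libraries change some calls.

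Promoters of 6 genes from small domains are shown because their domains differ in length or presence between the lines and their expression differs between the lines. Each is the run of 150 bases that ends just before the annotated transcription start, 5′ to 3′ on the strand of the gene, from RefSeq with the build GRCh38.p14, while all domain coordinates are in hg19. Capitals mark matches on either strand to any of 5 motifs. The first is the TATA box, with the letters TATAAA. The GC box, often bound by factors of the SP family, reads GGGCGG. The third motif is the CCAAT box, named after its own letters. Of the E-boxes, which helix-loop-helix factors recognise, one was searched as CAGCTG. The other E-box, typical of MYC and its partners, was searched as CACGTG. Both E-boxes are palindromes, and matches of different motifs may overlap.
GRP (chr18:59220008-59220157, plus strand): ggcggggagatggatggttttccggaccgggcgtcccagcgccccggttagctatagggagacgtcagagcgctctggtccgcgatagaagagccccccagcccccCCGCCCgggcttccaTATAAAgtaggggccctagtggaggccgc
CHGA (chr14:92923000-92923149, plus strand): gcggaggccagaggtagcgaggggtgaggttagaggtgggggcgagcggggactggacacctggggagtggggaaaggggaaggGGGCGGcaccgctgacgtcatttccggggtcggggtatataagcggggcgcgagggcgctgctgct
MYCL (chr1:39901918-39902067, minus strand): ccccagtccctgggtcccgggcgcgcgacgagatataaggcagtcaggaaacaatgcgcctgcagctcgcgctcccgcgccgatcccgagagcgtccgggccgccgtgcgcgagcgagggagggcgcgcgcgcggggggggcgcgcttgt
CDKN1A (chr6:36678564-36678713, plus strand): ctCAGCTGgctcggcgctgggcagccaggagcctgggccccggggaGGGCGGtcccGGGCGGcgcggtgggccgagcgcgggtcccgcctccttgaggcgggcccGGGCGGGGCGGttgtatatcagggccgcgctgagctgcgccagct
SPARC (chr5:151686916-151687065, minus strand): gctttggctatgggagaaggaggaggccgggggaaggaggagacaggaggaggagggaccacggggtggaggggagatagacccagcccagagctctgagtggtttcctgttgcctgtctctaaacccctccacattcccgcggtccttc
ANXA1 (chr9:73151715-73151864, plus strand): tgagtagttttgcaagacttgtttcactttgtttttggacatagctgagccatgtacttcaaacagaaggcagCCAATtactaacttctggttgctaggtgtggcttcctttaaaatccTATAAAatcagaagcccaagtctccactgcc

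The 6 windows differ in CpG dinucleotides. MYCL has 26, CDKN1A 19, GRP and CHGA 13 each, SPARC 4 and ANXA1 none, against a median of 7 and quartiles of 2 and 15 over the 27305 promoter windows of the same length in the table. A TATA box lies in the windows of GRP and ANXA1 and in 7.05% of all windows. GC boxes number 1 in GRP, 1 in CHGA and 4 in CDKN1A, and 36.7% of all windows hold at least 1. ANXA1 holds a CCAAT box, which 24.4% of all windows do, and CDKN1A an E-box CAGCTG, which 8.77% do. None of the 6 windows holds the E-box CACGTG, which 4.68% of all windows hold. These matches describe letters in the windows, not sites that are known to be bound. A promoter was matched for 997 of the 1649 named genes in small domains, which is under the 80% needed, so a comparison of base composition between gene sets is void.

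Small domains made up 13.2% of the domains of DMS153 (95% exact binomial interval 12.3% to 14.2%), 9.64% of those of H209 (8.74% to 10.6%) and 7.95% of those of MRC5 (7.10% to 8.87%). The intervals cover counting error only, and with 1 Hi-C library per line the differences have no replicate check. Because they are short, they covered 3.53%, 1.95% and 1.62% of the domain length of DMS153, H209 and MRC5, or 60.5, 34.6 and 26.7 Mb. Ends lie on a grid of 20 kb, so only lengths of 80 and 100 kb meet the rule, and 80 kb is the shortest length in each list. Just inside the limit, at 100 kb, DMS153 had 364 domains, H209 196 and MRC5 160. Just outside it, at 120 kb, they had 325, 194 and 175. The median length over all domains was 240 kb in DMS153 and 300 kb in both other lines. The deposited score of each domain, whose meaning is not given in the sources used here, had a lower median in small than in longer domains: 2.05 against 2.24 in DMS153, 1.88 against 2.13 in H209 and 2.24 against 2.55 in MRC5.

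Small domains were unevenly spread over the chromosomes. Chromosome 19, the most gene-dense human chromosome, held 52 small domains in DMS153, 43 in H209 and 32 in MRC5, which is 37.7%, 35.0% and 28.6% of its domains. Chromosome 17 came next in each line, at 24.6% in DMS153, 23.4% in H209 and 13.8% in MRC5. Chromosome 13, which is gene-poor, held 3.70%, 2.65% and 2.88%, the lowest share in both carcinoma lines. The order of the lines at the top was the same on chromosomes 17 and 19, DMS153 first and MRC5 last.

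**Figure D1:**
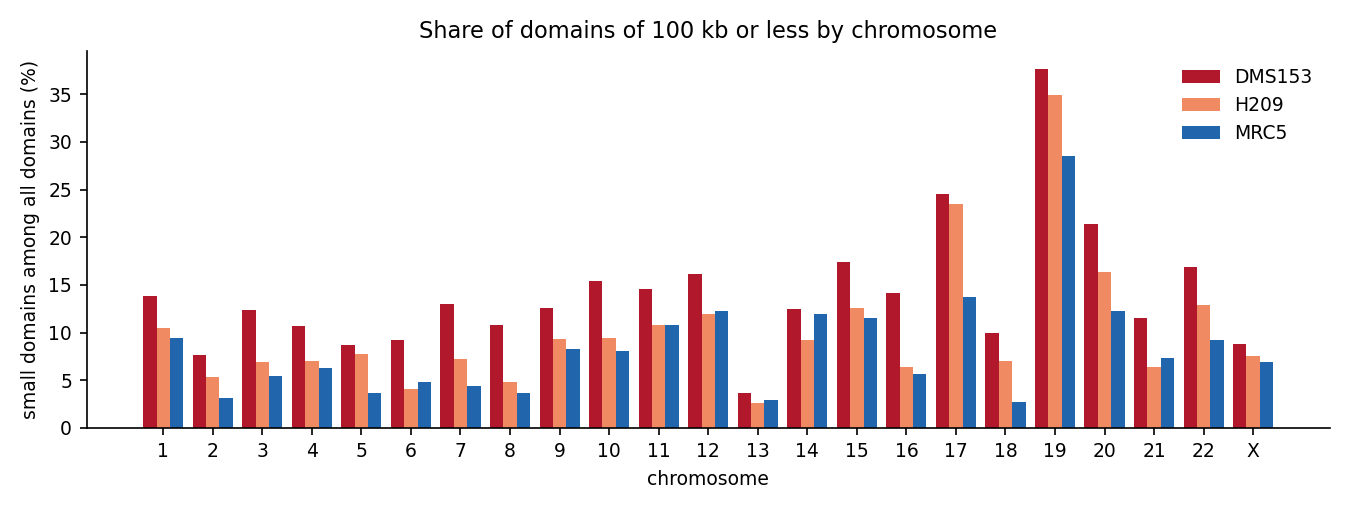
Share of domains of 100 kb or less among all domains of each chromosome (vertical axis, percent) for the 3 Hi-C libraries (bars, 1 colour per line). Chromosome 19 stands highest in each line, at 37.7%, 35.0% and 28.6% in DMS153, H209 and MRC5.

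Most small domains stood apart from other domains. Of those of DMS153, 371 of 665 (55.8%) touched no other domain at either end, 254 touched one at 1 end and 40 (6.02%) at both. Among longer domains of DMS153, 46.1% touched none and 9.84% touched one at both ends. H209 and MRC5 had the same order, with 64.2% and 62.9% of small domains touching none against 53.2% and 54.3% of longer ones. Runs of adjoining small domains were few: 35 runs with 73 domains in DMS153, 14 with 28 in H209 and 8 with 16 in MRC5. The longest run had 3 domains and lay in DMS153 at chr11:64600000-64859998 (hg19), and its first domain, chr11:64600000-64679998, was a small domain with the same ends in H209 and MRC5.

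A small domain was called matched when 1 domain of the other line had both ends within 20 kb of its own. Of the 665 small domains of DMS153, 273 (41.1%, 95% interval 37.3% to 44.9%) were matched in H209 and 187 (28.1%, 24.7% to 31.7%) in MRC5. Of the 383 of H209, 266 (69.5%) were matched in DMS153 and 156 (40.7%) in MRC5, and of the 294 of MRC5, 186 (63.3%) were matched in DMS153 and 160 (54.4%) in H209. The larger list thus had the smaller matched share in each pair. Among longer domains the matched share was 54.9% from DMS153 to H209, 42.2% from DMS153 to MRC5 and 49.1% from H209 to MRC5, each above that of small domains. It was 66.8% from H209 to DMS153, 54.0% from MRC5 to DMS153 and 51.6% from MRC5 to H209, each below it.

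Small domains without a match were mostly either swallowed by a longer domain or absent. A domain counted as inside another with a tolerance of 20 kb at each end. Of the small domains of DMS153, 217 (32.6%) lay inside a longer domain of MRC5 with a median length of 380 kb, 26 overlapped a domain in part and 235 (35.3%) met no domain there. In the other direction, 41 small domains of MRC5 (13.9%) lay inside a longer domain of DMS153, with a median of 240 kb, and 60 (20.4%) met none. Between the carcinoma lines, 146 small domains of DMS153 (22.0%) lay inside a longer domain of H209 and 51 of H209 (13.3%) inside one of DMS153.

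**Figure D2:**
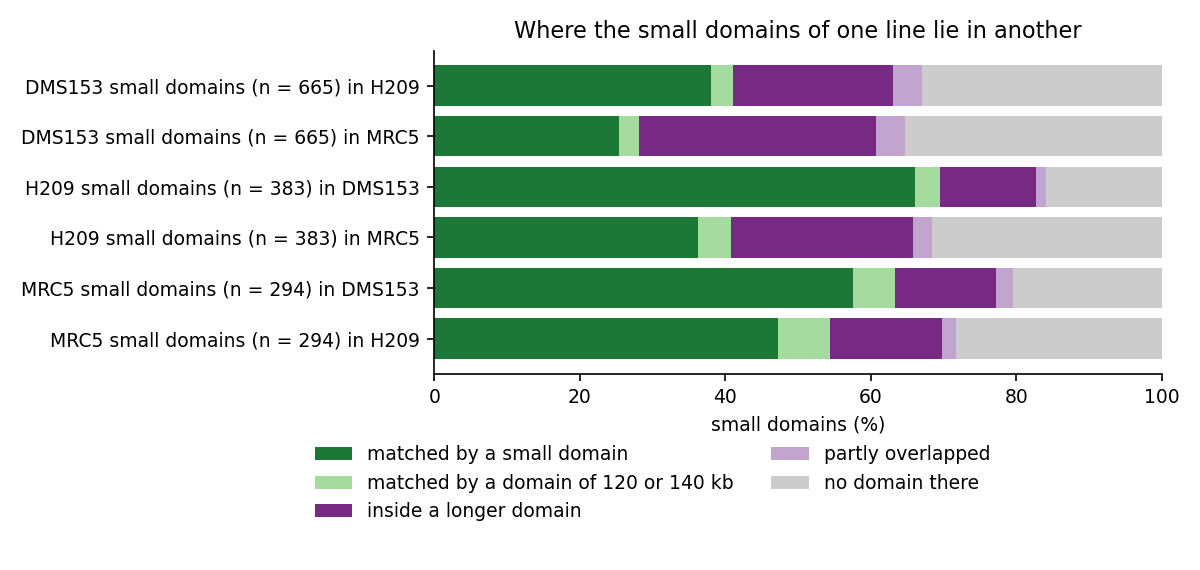
Share of the small domains of one line (horizontal axis, percent; number beside each bar) by what lies at the same place in another line: a matched small domain, a matched domain of 120 or 140 kb, a longer domain around it, a partial overlap or no domain. Matched shares run from 28.1% (DMS153 in MRC5) to 69.5% (H209 in DMS153). A longer domain counted as around a small one with a tolerance of 20 kb at each end.

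Merged over the lines, the small domains made 896 distinct regions. Of these, 115 (12.8%) were a small domain with matched ends in all 3 lines, 95 of them with identical ends. A further 138 were shared by DMS153 and H209, 54 by DMS153 and MRC5 and 24 by H209 and MRC5. DMS153 alone held 358, H209 106 and MRC5 101. In all, 331 regions (36.9%) were small in 2 or 3 lines.

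Genes were dense in small domains. A gene was placed by the midpoint of its locus. DMS153 small domains held 34.3 listed genes per Mb against 17.1 in longer domains, a ratio of 2.01 (95% interval for counting error only, 1.92 to 2.1). The ratio was 2.32 in H209 (39.2 against 16.9, 2.2 to 2.45) and 2.28 in MRC5 (39.9 against 17.5, 2.14 to 2.42). Density fell with each step of length in each line and reached 10.6, 10.8 and 11.1 genes per Mb above 1000 kb. At 120 kb it was 31.6, 33.1 and 36.3, so the limit of 100 kb cuts a gradient and no step. Without chromosome 19 the ratios were 1.92, 2.18 and 2.17.

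Genes in small domains were more often expressed than those of all longer domains pooled. At 1 FPKM or more stood 38.8% ± 0.674 (SD, n = 3 libraries) of the genes in DMS153 small domains against 26.8% ± 0.0705 in its longer domains, 41.1% ± 0.261 (n = 2) against 25.3% ± 0.0699 in H209, and 35.6% ± 0.329 (n = 3) against 22.2% ± 0.0603 in MRC5. The difference was 12.0 percentage points ± 0.613 in DMS153, 15.8 ± 0.331 in H209 and 13.4 ± 0.269 in MRC5. Each SD covers only the spread between libraries over the same genes, not the spread between domains or genes. Among genes in no domain the share was 30.2%, 30.1% and 24.4%. With unnamed clones and small RNA left out, the share in small domains was 56.6% in DMS153, 62.6% in H209 and 54.5% in MRC5, against 48.5%, 47.6% and 43.3% in longer ones. The next length was close: by their mean over libraries, 56.8%, 63.0% and 54.7% of named genes reached 1 FPKM in small domains and 56.5%, 62.2% and 51.5% in domains of 120 kb. Named genes at 100 FPKM or more made up 3.49%, 3.82% and 5.36% in small domains against 2.13%, 2.27% and 3.05% in longer ones. These shares describe genes within these libraries, and no test was run over genes.

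**Figure D3:**
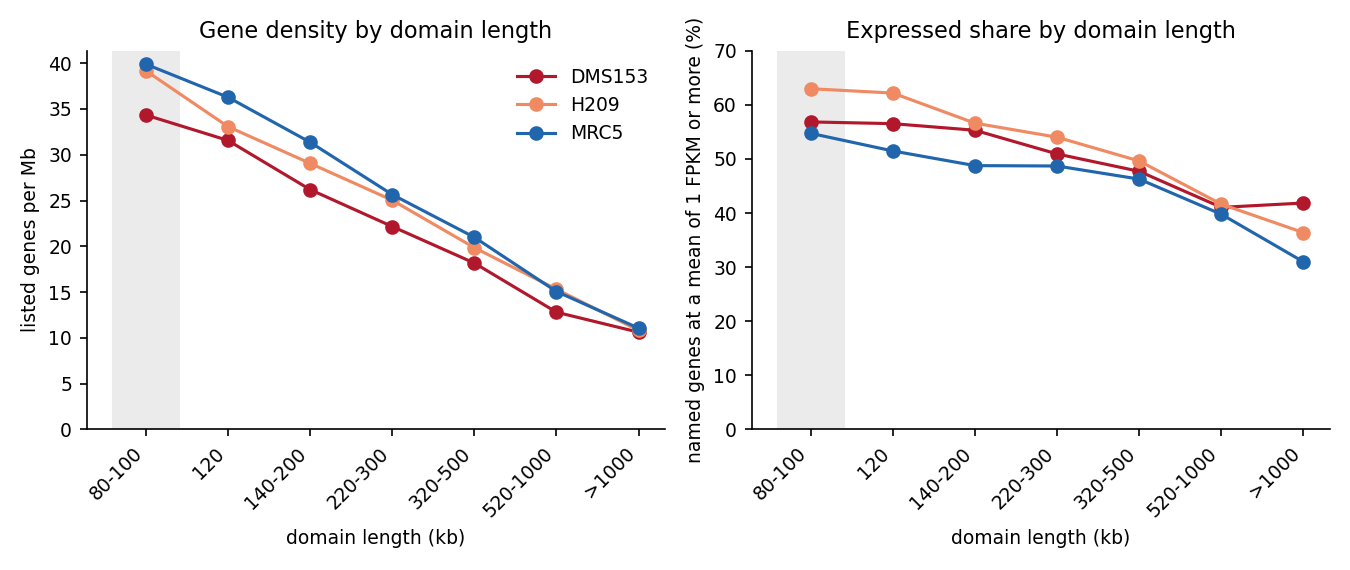
Left, listed genes per Mb by domain length (horizontal axis, kb, small domains shaded); right, percent of named genes whose mean over the libraries of the line is at least 1 FPKM; 1 line per cell line. Gene density falls from 34.3, 39.2 and 39.9 per Mb in small domains of DMS153, H209 and MRC5 to 10.6, 10.8 and 11.1 above 1000 kb.

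A typical small domain held a median of 3 listed genes. DMS153 had 53 small domains without any listed gene, H209 22 and MRC5 10. Of the 1186 named gene midpoints in small domains of DMS153, 866 (73.0%) had their whole locus inside, as did 71.5% in H209 and 73.3% in MRC5. In 69, 49 and 34 cases the gene was longer than the domain that held its midpoint. No named gene at 1 FPKM was found in 281 of the 665 small domains of DMS153, 124 of the 383 of H209 and 93 of the 294 of MRC5.

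The fullest small domain of DMS153 was chr19:49480000-49579998, with 20 listed genes, among them the chorionic gonadotropin genes, of which CGB reached a mean of 1.18 FPKM in DMS153; these genes are near-identical copies, and their single values are uncertain. Its highest named gene was RUVBL2, an ATPase of chromatin remodelling complexes, at 42.3 FPKM ± 3.65 (SD, n = 3), with 45.8 ± 2.38 (n = 2) in H209 and 38.4 ± 2.97 (n = 3) in MRC5. The second fullest, chr19:12980000-13079998, held CALR, an endoplasmic reticulum chaperone, at 346 ± 19.9 FPKM, and 7 of its 8 named genes reached 1 FPKM. CALR stood at 321 ± 16.5 in H209 and 347 ± 41.2 in MRC5, and did not pass the test of either carcinoma line against MRC5 (limma, adjusted p of 1.0 and 0.348). In H209 the fullest was chr22:23040000-23119998, with 17 listed genes in the immunoglobulin lambda variable cluster, where no named gene reached 1 FPKM. A full small domain was thus not always an expressed one.

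Regions that were small domains in all 3 lines carried genes of unequal behaviour. In chr19:4260000-4359998, with identical ends in the 3 lines, SHD, an SH2-domain adaptor protein, read 43.3 and 51.77 FPKM in the H209 libraries and at most 0.0714 in any other library. Its neighbour STAP2, another adaptor, stood at 33.1 ± 1.39 in H209, 3.41 ± 0.419 in DMS153 and 0.543 ± 0.0957 in MRC5, and FSD1 at 34.1 ± 2.47, 22.8 ± 2.23 and 6.15 ± 1.68. SHD and STAP2 were lower in DMS153 than in H209 (log2 fold change -5.54 and -2.96, limma adjusted p 2.5e-10 and 2.7e-08). Fold changes here are differences of log2(FPKM + 1), which understate changes of low genes.

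In chr16:68280000-68379998, also identical in the 3 lines, SLC7A6, an amino acid transporter, stood at 43.9 ± 3.83, 27.2 ± 1.69 and 29.1 ± 0.225 FPKM in DMS153, H209 and MRC5. PRMT7, an arginine methyltransferase, stood at 29.9 ± 1.55, 29.0 ± 0.319 and 19.4 ± 0.319, and neither gene passed the limit on fold change against MRC5. PLA2G15, a lysosomal phospholipase, read 2.07, 2.69 and 2.17 in DMS153, 4.26 and 2.66 in H209 and 17.1, 16.4 and 14.0 in MRC5, lower in both carcinoma lines (log2 fold change -2.34 and -1.93). In chr14:24700000-24779998, GMPR2, a GMP reductase, stood at 30.7 ± 5.49, 31.7 ± 1.82 and 48.4 ± 1.67, and TINF2, a shelterin subunit at telomeres, at 21.4 ± 1.22, 22.4 ± 1.85 and 15.0 ± 0.0998. In chr11:64600000-64679998, EHD1, an endocytic recycling ATPase, was lower in both carcinoma lines (7.67 ± 1.18 and 13.8 ± 0.565 against 49.4 ± 7.82), while CDC42BPG, a kinase that binds CDC42, was higher (7.38 ± 0.4995 and 11.8 ± 0.188 against 0.163 ± 0.201). One shared domain therefore held genes called in opposite directions.

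The amino acid transporter gene SLC7A8 lay in chr14:23580000-23659998, a small domain in all 3 lines with identical ends. It read 15.8, 15.7 and 18.8 FPKM in DMS153, 0.226 and 0.0753 in H209 and 0.225, 0.169 and 0.0735 in MRC5. DMS153 did not overlap either other line, and its difference from H209 was 3.95 (log2, adjusted p 7.8e-09).

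A gene counted as called where its log2 fold change reached 1 in size and its limma p, adjusted over 19066 tested genes, stayed below 0.05. In either direction 50.4%, 47.9% and 27.1% of all genes tested were called when DMS153 was set against MRC5, H209 against MRC5, and the carcinoma lines against each other, in that order. Of the 1163 tested genes in small domains of DMS153 or MRC5, 402 (34.6%) were higher in DMS153 and 215 (18.5%) lower, beside 34.0% and 16.4% of all genes tested. For H209 against MRC5, 309 of 888 (34.8%) were higher and 143 (16.1%) lower, beside 33.0% and 14.9%. Between the carcinoma lines, 142 of 1167 (12.2%) were higher in DMS153 and 185 (15.9%) lower, beside 13.8% and 13.4%. All these shares lie near the background. The split between directions depends on scaling. With median ratio scaling, 300 of the 1163 genes (25.8%) were higher in DMS153 than in MRC5 and 325 (27.9%) lower, beside 24.4% and 25.4% of all genes tested. Quantile normalization gave 274 and 296 (23.6% and 25.5%) beside 22.2% and 23.2%, and TPM scaling 355 and 295 (30.5% and 25.4%) beside 29.6% and 23.2%. For H209 against MRC5, with 888 genes, median ratio scaling gave 203 and 238 (22.9% and 26.8%) beside 20.5% and 24.8%. Quantile normalization gave 207 and 186 there (23.3% and 20.9%) beside 21.4% and 19.9%, and TPM scaling 387 and 133 (43.6% and 15.0%) beside 41.6% and 14.1%. Of the 1167 genes between the carcinoma lines, TPM scaling gave 93 higher and 414 lower (7.97% and 35.5%) beside 9.35% and 33.1%. Under each of these scalings the shares in small domains moved with those of all genes. The median log2 fold change of all genes tested was 0.44 for DMS153 and 0.46 for H209 against MRC5, and single fold changes are read against these values. Both comparisons share the MRC5 libraries.

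Genes in small domains without a match were also set beside the background. In DMS153 small domains unmatched in MRC5, 233 of 596 genes (39.1%) were higher in DMS153 and 89 (14.9%) lower. For those of H209 unmatched in MRC5, 131 of 328 (39.9%) were higher in H209 and 43 (13.1%) lower. In MRC5 small domains unmatched in DMS153, 47 of 181 (26%) were higher in DMS153 and 49 (27.1%) lower, and in those unmatched in H209, 63 of 211 (29.9%) were higher in H209 and 38 (18.0%) lower. Matched small domains of DMS153 and H209 gave 32.6% and 33.4% higher in the carcinoma line and 19.3% and 15.9% lower. Matched small domains of MRC5 gave 31.7% higher and 20.1% lower in DMS153, and 31.8% higher and 18.8% lower in H209. For H209, the share lower than in MRC5 was thus as high in matched as in unmatched domains of MRC5. No test over genes was run for these gaps.

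**Figure D4:**
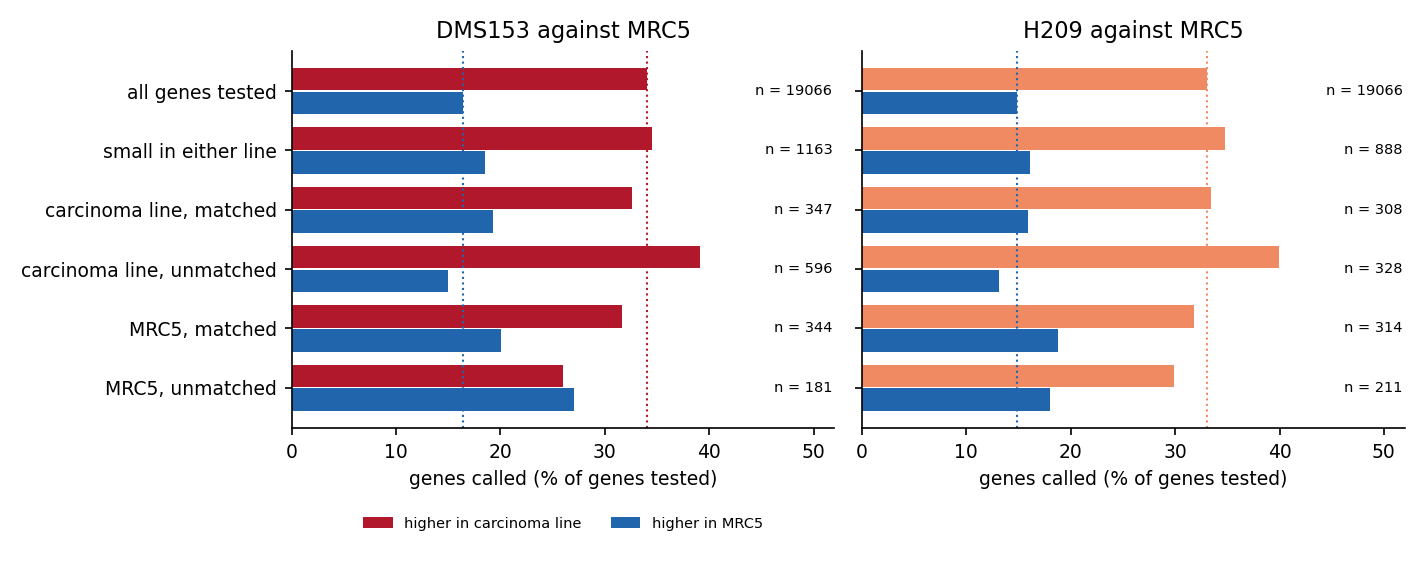
Percent of tested genes called higher in the carcinoma line or higher in MRC5 (horizontal axis), for all genes tested and for genes in small domains by line and by match, with the number tested at the right; dotted lines mark the shares of all genes tested. Unmatched small domains of DMS153 and H209 read 39.1% and 39.9% higher in the carcinoma line, beside 34.0% and 33.0% of all genes tested. They read 14.9% and 13.1% higher in MRC5, beside 16.4% and 14.9%.

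Of a list of 62 lineage, cell cycle and chromatin genes, 11 lay in a small domain of at least 1 line, and 10 of them are described here. MYCL, a MYC-family transcription factor known for amplification in this tumour type, lay in a domain of 100 kb at chr1:40280000-40379998 in DMS153 and H209, and in one of 260 kb, chr1:40260000-40519998, in MRC5. It read 55.9, 63.9 and 48.3 FPKM in DMS153, 150 and 155 in H209 and 0.0718, 0.0659 and 0.0612 in MRC5. The lines did not overlap, H209 was highest, and the log2 fold change against MRC5 was 5.73 ± 0.0958 (SE, adjusted p 5.2e-11) in DMS153 and 7.17 ± 0.107 (adjusted p 5.8e-11) in H209. TRIT1, a transfer RNA modifying enzyme whose gene shares that domain, followed the same order, with 64.0, 73.6 and 66.8 FPKM in DMS153, 184 and 192 in H209 and 7.54, 7.96 and 8.63 in MRC5.

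The neuroendocrine secretion genes GRP and CHGA had small domains in DMS153 alone. GRP, which encodes gastrin-releasing peptide, lay in chr18:56820000-56899998 (80 kb) in DMS153, in a domain of 360 kb in MRC5 and in none in H209. GRP read 762.5, 767 and 798 FPKM in DMS153 and 165 and 168 in H209, and it is listed at 0 in the 3 libraries of MRC5. CHGA, the gene of chromogranin A in secretory granules, lay in chr14:93340000-93419998 (80 kb) in DMS153 and in no domain in the other lines. It read 256, 219 and 348 FPKM in DMS153, 361 and 350 in H209 and at most 0.00456 in MRC5. H209 thus expressed both genes at or above 164.7 FPKM with no small domain around them, and its CHGA values lay above all of DMS153.

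The keratin genes KRT8 and KRT18, which build the filaments of simple epithelia, shared chr12:53280000-53379998 (100 kb) in both carcinoma lines, where MRC5 had a matched domain of 140 kb. KRT8 read 346, 331 and 381 FPKM in DMS153, 305 and 295 in H209 and 22.7, 25.2 and 25.8 in MRC5, with log2 fold changes against MRC5 of 3.79 ± 0.0745 and 3.56 ± 0.0833 (adjusted p 1.3e-10 and 6.2e-10). KRT18 stood at 197 ± 13.6, 137 ± 3.10 and 74.4 ± 5.03. Its fold change in DMS153 was 1.39, and fell short of the limit of 1 under TPM scaling (0.97) and median ratio scaling (0.76). In H209 it was 0.87, and passed the limit under TPM scaling (1.09) and quantile normalization (1.12). The KRT8 and KRT18 loci overlap, and the strand of the libraries is not given in the sources used here, so the genes can share reads.

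Cell cycle genes lay on both sides. MKI67, the proliferation marker Ki-67, had a small domain in all 3 lines, of 80 kb in DMS153 (chr10:129880000-129959998) and 100 kb in H209 and MRC5. It read 96.6, 114 and 92.8 FPKM in DMS153, 52.1 and 47.6 in H209 and 1.097, 0.898 and 0.890 in MRC5. No lines overlapped, and the domain was there at both high and low expression. Its difference of 1.002 (log2) between the carcinoma lines fell to 0.36 under TPM scaling. CDKN1A, which encodes the cyclin-dependent kinase inhibitor p21, lay in chr6:36580000-36659998 (80 kb) in both carcinoma lines and in a domain of 120 kb in MRC5. It read 22.3, 22.8 and 29.6 FPKM in DMS153, 63.8 and 56.2 in H209 and 734, 814 and 768 in MRC5, a log2 fold change of -4.91 ± 0.109 in DMS153 and -3.67 ± 0.122 in H209 (adjusted p 2.9e-10 and 5.4e-09).

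CDH1, the epithelial adhesion protein E-cadherin, lay in a small domain in MRC5, chr16:68740000-68839998 (100 kb), where it read at most 0.0436 FPKM, and in a domain of 320 kb in both carcinoma lines, where it read 186, 213 and 206 in DMS153 and 49.9 and 53.7 in H209. The log2 fold change was 7.63 ± 0.0706 and 5.70 ± 0.0789 (adjusted p 1.7e-12 and 4.2e-11). CTCF itself lay in a domain of 100 kb in H209, 120 kb in MRC5 and 140 kb in DMS153, which are neighbouring lengths on the grid. CTCF read 27.6, 30.7 and 25.8 FPKM in DMS153, 31.4 and 32.9 in H209 and 10.2, 10.1 and 10.1 in MRC5, and the fold changes of 1.38 and 1.57 fell to 0.78 and 0.86 with median ratio scaling. TPM scaling also took the call of CTCF in DMS153 away (0.99). POU2F3, a transcription factor of another subtype of this tumour, lay in a domain of 80 kb in both carcinoma lines and read under 0.3 FPKM in all 8 libraries.

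**Figure D5:**
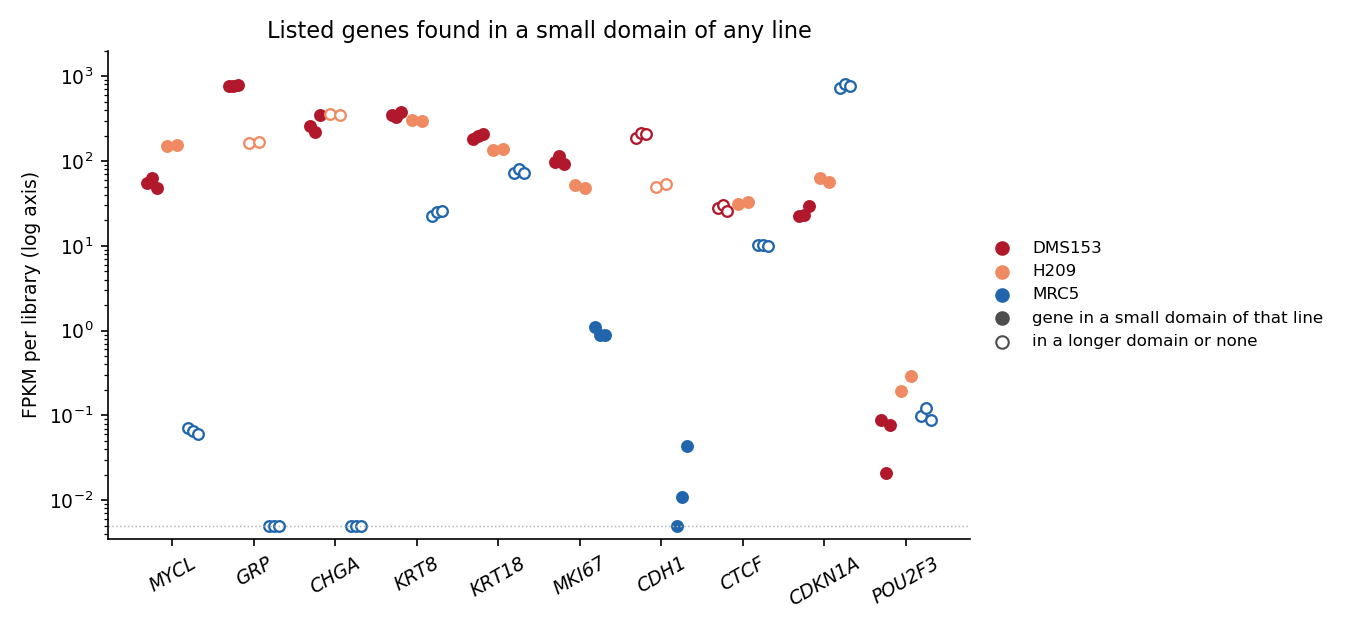
FPKM in each RNA library (points, log axis) of 10 listed lineage, cell cycle and chromatin genes that lay in a small domain of any line; filled points mark a line in which the gene lay in a small domain, and values under 0.005 FPKM, zeros included, are drawn on the dotted line. CDH1 is filled in MRC5 only, where it reads at most 0.0436 FPKM, and MYCL is filled in both carcinoma lines, at 48.3 to 155 FPKM.

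Among all genes of small domains, those with the largest called falls in the carcinoma lines included SPARC, ANXA1, C1R, MFAP4, TFPI and PSG5. SPARC, a collagen-binding matrix protein, lay in chr5:151040000-151139998 (100 kb) in DMS153 and in a domain of 120 kb in H209 and MRC5. It read 2.64, 2.95 and 3.51 FPKM in DMS153, 94.0 and 111 in H209 and 1355, 1430 and 1428 in MRC5, a log2 fold change against MRC5 of -8.45 ± 0.0932 in DMS153 and -3.77 ± 0.104 in H209 (adjusted p 5.0e-12 and 1.7e-09). SPARC thus stood lowest in DMS153, whose domain is matched in both other lines, with its start 1 grid step of 20 kb away. MFAP4, a microfibril protein, also stood lowest there. Its small domain in DMS153, chr17:19260000-19359998, lay inside the 1140 kb domain of both other lines. MFAP4 read 0.362 ± 0.112 FPKM in DMS153, against 23.9 ± 1.36 in H209 and 83.5 ± 8.10 in MRC5.

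ANXA1, a phospholipid-binding protein that dampens inflammation, had the opposite layout, with a small domain in MRC5 alone (chr9:75720000-75799998, 80 kb). It read 256, 247 and 241 FPKM in MRC5, 1.62 and 1.19 in H209 and 0.0583, 0.00118 and 0 in DMS153. C1R, a complement protease, lay in chr12:7160000-7259998 (100 kb) in MRC5 and in 220 and 240 kb domains in DMS153 and H209, at 278 ± 1.71 FPKM in MRC5 against 2.50 ± 0.0707 and 1.98 ± 0.0806. S100A6, a calcium-binding protein, and CREB3L1, a transcription factor of the secretory pathway, also had small domains in MRC5 alone, at 632 ± 57.3 and 83.9 ± 7.23 FPKM there against at most 52.2 and 5.08 in any carcinoma library. TFPI, an inhibitor of coagulation, shared a small domain (chr2:188360000-188459998) between DMS153 and MRC5, at 0.484 ± 0.113 in DMS153 and 86.6 ± 0.832 in MRC5.

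The largest rises against MRC5, beside those of GRP, CHGA, CDH1 and MYCL given above, were in the following genes. HEPACAM2, an adhesion molecule of the immunoglobulin superfamily, lay in chr7:92800000-92879998 (80 kb) in DMS153 and in no domain elsewhere, with 141, 152 and 133 FPKM in DMS153, 33.1 and 33.9 in H209 and at most 0.0216 in MRC5. TAGLN3, a neuronal actin-binding protein, lay in chr3:111700000-111779998 (80 kb) in DMS153 alone, yet read higher in H209, at 226 and 278, than in DMS153, at 62.7, 72.2 and 64.4. DPYSL5, a protein of axon growth, lay in chr2:27060000-27159998 (100 kb) in both carcinoma lines and in a matched domain of 120 kb in MRC5, at 44.0 ± 2.16 and 61.1 ± 4.78 FPKM against at most 0.000159. KLK11, a secreted serine protease, lay in chr19:51520000-51599998 (80 kb) in both carcinoma lines, at 58.5 ± 9.56 and 73.4 ± 0.442 against at most 0.0025.

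H209 had small domains of its own around MS4A8, a membrane protein with several transmembrane segments (chr11:60460000-60539998), and RASSF6, a Ras-association protein (chr4:74440000-74519998). MS4A8 read 121 and 143 FPKM in H209 and 132, 143 and 126 in DMS153, which overlap, although DMS153 had no domain there. RASSF6 read 109 and 96.8 in H209 and 152, 124 and 151 in DMS153, where it lay in a domain of 320 kb.

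Between the carcinoma lines, the 6 largest calls in each direction included 6 genes with a small domain only in the line of lower expression, 2 with one only in the line of higher expression and 4 with one in both. These genes were picked by fold change, and the same split over all genes was not counted, so no link with expression is read from it. DMS153 also has more small domains than H209, 665 against 383. One of the 6 is SPARC, whose domain is matched in H209. AOC1, a diamine oxidase, and TMEM176B, a membrane protein of immune and epithelial cells, shared chr7:150480000-150579998 (100 kb) in DMS153 and stood in no domain in H209. AOC1 read 41.2, 39.2 and 52.8 FPKM in DMS153 and 1.45 and 1.46 in H209, and TMEM176B 75.1, 70.8 and 78.3 against 7.54 and 7.02. GNG8, a G protein subunit, lay in a small domain of DMS153 alone (chr19:47100000-47179998), where it is listed at 0 in the 3 libraries, and read 31.7 and 47.3 in H209. PPP1R17, a phosphatase inhibitor of neurons, lay in chr7:31680000-31779998 in DMS153, at 0.681, 0.742 and 0.135, and inside a domain of 600 kb in H209, at 31.2 and 36.0. STAG3, a cohesin subunit of meiosis, and IFI6, an interferon-induced protein, had small domains in H209 alone, yet DMS153 read higher, at 29.3 ± 3.02 against 1.18 ± 0.0618 and 20.2 ± 3.15 against 0.905 ± 0.00863. FXYD5, a regulator of the sodium pump, and GDAP1L1, a neuronal gene, had the same small domain in both.

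The most abundant named transcripts of small domains in DMS153 were those of ACTB, GRP, HNRNPD, H3F3A, RPS19 and RPS7. ACTB, cytoplasmic actin, lay in chr7:5520000-5599998 (80 kb) in DMS153 and in one of 240 kb in both other lines, at 1005 ± 45.8, 1281 ± 28.8 and 2013 ± 189 FPKM in DMS153, H209 and MRC5. HNRNPD, a regulator of messenger RNA decay, and H3F3A, a gene of histone H3.3, had small domains in both carcinoma lines and lay in no domain in MRC5. HNRNPD read 550, 545 and 477 FPKM in DMS153, 387 and 413 in H209 and 141, 145 and 139 in MRC5. H3F3A read 475, 510 and 473, 399 and 468, and 62.9, 72.7 and 61.6. Both genes were higher in the carcinoma lines, HNRNPD by 1.87 and 1.49 (log2) and H3F3A by 2.87 and 2.70. The call of HNRNPD in H209 was lost under median ratio scaling (0.73).

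In MRC5 the most abundant were RPLP0, S100A6, RPL14, C17orf76-AS1, RPS9 and PFDN5. In H209 they included RPS19, EIF4A1, H3F3A, HNRNPD and C17orf76-AS1. RPS19, a protein of the small ribosomal subunit, lay in chr19:42360000-42459998 in both carcinoma lines and in no domain in MRC5, at 470 ± 62.4 and 675 ± 45.2 FPKM against 1260 ± 125. RPLP0, of the ribosomal stalk, and RPL14, of the large subunit, had small domains in MRC5 alone, at 1798 ± 180 and 538 ± 56.1 FPKM there. RPS7 stood at similar levels, with 466 ± 59.3, 513 ± 43.8 and 497 ± 50.7, although it had a small domain in DMS153 only. Ribosomal protein, actin and histone H3.3 genes have many near-identical copies, so their levels are uncertain where reads could be split among them.

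Members of several gene families were counted, with no test of enrichment. Of all named genes in domains, 8.40% in DMS153, 5.43% in H209 and 4.64% in MRC5 lay in small ones. No HOX gene or clustered protocadherin did in any line, while 26 and 57 of them lay in domains of DMS153. In H209 31 and 57 of them lay in domains, and in MRC5 30 and 22. Genes of one cluster can share a domain, so these absences may rest on few domains. Histone cluster genes lay in small domains in DMS153 alone, 6 of 8 in domains, and all 6 share the single domain chr6:26040000-26119998. HIST1H1C, a linker histone and the highest of them, read 3.28, 3.799 and 4.08 FPKM in DMS153, 32.8 and 29.1 in H209 and 7.90, 9.495 and 7.87 in MRC5. H209 did not overlap the other lines, and HIST1H1C stood lowest in the line with the small domain.

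The interferon-induced chemokine genes CXCL9, CXCL10 and CXCL11 lay in a small domain with identical ends in all 3 lines, chr4:76900000-76999998. CXCL10 was the one member at 1 FPKM or more, with 2.90, 2.68 and 2.67 FPKM in MRC5 and at most 0.170 in any carcinoma library. Ribosomal protein genes in small domains numbered 3 of 28 in domains of DMS153, 2 of 31 in H209 and 3 of 37 in MRC5, 7 different genes in all, and none of the 7 was in a small domain of all 3 lines. Solute carriers numbered 24 of 218, 18 of 214 and 16 of 205 in the same order of lines. Olfactory receptors, which often lie in clusters, numbered 16 of 359, 7 of 360 and 3 of 340, and C2H2 zinc fingers 15 of 211, 23 of 259 and 18 of 225. Both families were counted by symbol, pseudogenes included, and most olfactory receptor members in small domains of DMS153 are pseudogenes.

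Small domains also held microRNA loci, and 6 mature sequences are shown because their loci carry high signal in DMS153 or share a seed or a domain with one that does. They come from RefSeq (GRCh38.p14), 5′ to 3′, with the seed, bases 2 to 8, in capitals.
let-7f-5p: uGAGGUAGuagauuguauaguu
miR-98-5p: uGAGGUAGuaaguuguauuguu
miR-146a-5p: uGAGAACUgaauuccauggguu
miR-146b-5p: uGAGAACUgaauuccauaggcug
miR-192-5p: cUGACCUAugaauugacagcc
miR-194-5p: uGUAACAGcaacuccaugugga

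Let-7f and miR-98 have one seed, GAGGUAG, and miR-146a and miR-146b another, GAGAACU. The first pair lay in a single small domain of DMS153, chrX:53580000-53679998, where H209 had a matched domain of 120 kb and MRC5 none. MIRLET7F2 read 2840, 2672 and 2895 FPKM in DMS153 and MIR98 81.9, 87.7 and 132, and both are listed at 0 in each library of H209 and MRC5. Let-7f is made from 2 loci in the table, so its reads need not come from this one. The same holds for miR-194-5p, which is also made from 2 loci.

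MIR192 and MIR194-2 lay in chr11:64600000-64679998, a small domain in all 3 lines. MIR192 read 735, 738 and 751 FPKM in DMS153 and is listed at 0 in the other libraries. MIR146A, in a small domain of all 3 lines on chromosome 5, read 576, 627 and 747 in DMS153 and at most 0.0608 elsewhere. MIR146B, in a small domain of H209 and MRC5 but in none of DMS153, read 1780, 1686 and 1786 in DMS153 and is listed at 0 in H209 and MRC5. The loci named here are listed at or near 0 in all H209 and MRC5 libraries, with or without a small domain there. They therefore cannot show whether a small domain and signal go together. The loci of MIR146B and MIRLET7F2 span 73 and 83 bases, but those of MIR146A and MIR194-2 span 19159 and 2095, so that their FPKM are of a longer locus and not of the mature microRNA alone. High microRNA signal moves with the line DMS153, so the line and the short RNA content of its libraries cannot be told apart.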

How the data were processed

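Hi-C domains came from 1 library per line and FPKM values from 8 RNA-seq libraries. Bowtie2, HOMER 4.8, TopHat2 2.1.0, Cufflinks 2.2.0 and the build hg19 are named, with no order, per the submitters' processing notes. The authors deposited domain lists with a score per domain, while the meaning of the score and the settings of the caller stay unstated in the labels. Gene levels are FPKM, as deposited by the authors and per the file headers, for 57815 genes; 163 genes carry a status other than OK in some library. No counts were used, so depth is unknown. For RNA selection and strand, nothing is given there either.

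Domains were compared on a grid of 20 kb, and genes were placed by locus midpoint. Genes at 1 FPKM or more in at least 2 libraries (19066) were tested on log2(FPKM + 1) with limma 3.58.1 in R 4.3.3, in 1 fit over the 3 lines with 5 residual degrees of freedom and Benjamini-Hochberg adjustment, after a test on simulated data. Exact binomial intervals are at 95%. Named genes were the 6 most abundant per line, the 6 highest and 6 lowest calls per comparison with at least 5 FPKM in the higher line, genes of the 10 fullest shared regions and of the 3 fullest domains per line, and the listed core genes; unnamed clones were left out, as were Y-linked, mitochondrial and small RNA genes. MicroRNA loci, family members and neighbours of core genes were named outside that rule, after their values were seen. Some genes that the rule names are not reported here. The members and lists were chosen with earlier results of these data known. Alternatives changed the scaling, filter, pseudocount, length limit, match tolerance and gene placement, or left out libraries.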

Additional observations from a re-analysis of the deposited data

Results flagged for a closer look

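In 4 genes of small domains the carcinoma lines departed from MRC5 in opposite directions, both past the threshold, and the difference between DMS153 and H209 was itself tested with limma. SEPT6, a septin of the cytoskeleton, read 3.29, 2.74 and 3.51 FPKM in DMS153, 27.2 and 30.3 in H209 and 8.80, 10.3 and 9.52 in MRC5, with a small domain in both carcinoma lines. Its log2 difference between DMS153 and H209 was -2.83 (adjusted p 4.1e-08). ZNF608, with a small domain in DMS153, stood at 15.3 ± 1.20 (SD, n = 3), 2.90 ± 0.739 (n = 2) and 6.77 ± 0.200 (n = 3) FPKM in DMS153, H209 and MRC5. Its difference between DMS153 and H209 was 2.07 (adjusted p 5.5e-07). Against MRC5 its log2 fold changes were 1.067 in DMS153 and -1.007 in H209, barely past the limit of 1. SEPT6 and ZNF608 were not followed under other scalings, so whether their opposite calls hold there was not tested.

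The zinc finger genes ZNF625 and ZNF844 shared the small domain chr19:12160000-12259998 (hg19) in H209 and MRC5 and lay in a longer one in DMS153. ZNF844 read 10.7 and 9.66 FPKM in H209, 2.71, 2.2 and 2.08 in MRC5 and at most 0.00584 in DMS153, a difference between DMS153 and H209 of -3.47 (adjusted p 8.4e-09). ZNF625 stood at 6.40 ± 0.0746 in H209 and 1.31 ± 0.339 in MRC5 and is listed at or near 0 in DMS153, a difference of -2.89 (adjusted p 6.1e-08). The call of ZNF625 in H209 against MRC5 was lost under quantile normalization.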

How the results depend on the processing

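The number of small domains follows its limit: at 80 kb it was 301, 187 and 134 in DMS153, H209 and MRC5. At 120 kb it was 577 in H209 and 469 in MRC5, and in DMS153 325 domains of 120 kb join the 665. With a score at or above the median of the line it was 248, 94 and 83. The gene density ratio in DMS153, H209 and MRC5 was 2.37, 2.67 and 2.62 with genes placed in every domain they overlap and 2.51, 2.89 and 2.96 without small RNA and unnamed clones. With the limit at 80 kb it was 2.16 in DMS153 and 2.50 in H209, and without chromosome 19, a choice made after seeing the data, 1.92 and 2.18. The difference in the share of expressed genes was 14.1, 17.7 and 14.9 points at 0.5 FPKM, 8.71, 12.2 and 9.45 at 5 FPKM, 8.13, 15.1 and 11.2 without small RNA and clones and 16.3, 18.8 and 16.6 with every overlapped domain. Without chromosome 19 it was 11.4 in DMS153 and 14.4 in H209. Median ratio scaling gave 325 lower genes for DMS153 against MRC5 and 203 higher and 238 lower for H209 against MRC5, and TPM scaling 93 higher and 414 lower for DMS153 against H209; the cause was not tested. The percent called minus that of all genes changed sign without the filter on low values in 4 sets of unmatched domains: lower genes of DMS153 (0.664) and of H209 (0.636), and higher genes of MRC5 domains unmatched in DMS153 (0.261) and in H209 (1.4998). For lower genes of H209 it also did under median ratio scaling (0.833) and without chromosome 19 (0.114). Leaving out each RNA library gave 395 to 402 higher and at most 225 lower genes for DMS153 against MRC5, 271 to 316 and 139 to 142 for H209 against MRC5, and 138 to 147 and 139 to 194 for DMS153 against H209. MKI67 lost its call between the carcinoma lines without DMS153 replicate 2 (0.91) or H209 replicate 2 (0.94) and under TPM scaling (0.36). With the replicate number as a block (replicate block), the counts were 402 and 216, 307 and 139, and 142 and 183. Same-numbered libraries deviated together with low r, -0.0118 to 0.123 over 7 pairs, and the main fit did not pair them. Of 8 libraries, 6 correlated best with their own number, a hint from the data and not the design. The deviations were taken within each line, so these 8 outcomes are not independent. Among single genes, 4390 values kept their side of the threshold, 50 lost it and 93 gained it.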
